A study of Mus musculus with 6 samples.

Results

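The genes described here encode enzymes and remodellers that act on histones and nucleosomes, measured by RNA-seq in the mouse dendritic cell line DC2.4 with and without a knockout of PD-L1. They are the rows of the count table whose symbol starts with Kmt, Kdm or Chd followed by a digit, or with Smarc. Antisense names ending in os and 4 demethylase genes set aside by name were left out. This gave 45 of the 31205 genes in the table, namely 8 methyltransferases (Kmt), 14 demethylases (Kdm), 10 CHD genes and 13 Smarc genes. The groups were DC2.4 cells with the genotype PD-L1 knockout (3 libraries) and DC2.4 control cells (3 libraries). The labels name no drug treatment of either group, and they do not say whether the knockout line was 1 clone or whether the 3 libraries of each group stem from separate cultures. P-values therefore cover only the scatter among these 6 libraries, part or all of which may be technical.

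DNA in the nucleus is wound around histones, and 2 kinds of machinery set how open it is. Lysine methyltransferases and demethylases write and erase methyl groups on histone tails, some of which mark active promoters and enhancers and others silent chromatin. ATP-driven remodellers, among them the SWI/SNF, CHD and ISWI families, slide, evict or space nucleosomes. In myeloid cells these enzymes shape the enhancers that lineage factors and inflammatory signals use.

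Libraries held between 13501776 and 21133688 counts in knockout and between 10918498 and 23250065 in control. Values below are counts scaled to library size (CPM, after TMM normalisation). Tests are edgeR's quasi-likelihood test over the 11453 genes that passed a filter on low counts, and a gene was called where its Benjamini-Hochberg adjusted p was under 0.05. Cd274, the gene of PD-L1, was no lower under the knockout label (7.70, 5.44 and 8.11 CPM in knockout libraries 1, 2 and 3, against 4.65, 5.87 and 6.83 CPM in control libraries 1, 2 and 3), so its transcript level does not check the label (log2 fold change 0.28, SE 0.25, edgeR adjusted p = 0.415). All 8 myeloid markers had at least 10 counts in every library. Of 13 dendritic markers 4 did (Itgax, Zbtb46, Irf8 and Cd74), while Flt3, Ccr7, Clec9a and Cd209a had at most 1 count in any library. Summed stromal markers lay between 0 and 0.269 CPM in knockout, against 0.360 to 217 CPM in control, the high value being that of control library 2. Of the 3656 stromal counts in that library, 2235 were of Col1a1 and 1382 of Fn1, while Pdgfra, Dcn and Thy1 had 0.

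Of the 45 members, 43 passed the filter and 16 of them were called lower in knockout cells, with 0 called higher. The Kmt2 methyltransferases Kmt2a and Kmt2c, the remodellers Chd6 and Smarca4, and the demethylases Kdm3b and Kdm7a were among those that fell. Over all genes tested, 13.5% were called lower and 11.8% higher, against 37.2% and 0% of the 43 members. DESeq2 and limma-voom also called 0 members higher. At an unadjusted p under 0.05 edgeR counted 1 member higher (Kdm4b) and 20 lower. Over all 11453 genes tested, 2318 were higher and 2362 lower at that threshold. The median log2 fold change, knockout minus control, was -0.27 over the 43 members and 0.01 over all genes tested. In 19 members every knockout library was below every control library (21.8% of all genes tested were), and in 1, Kdm4b, every knockout library was above (21.1% of all genes). In these bulk libraries fewer cells with a transcript and less of it per cell cannot be told apart. Kdm4d (6 counts over all libraries) and Smarca1 (15 counts, 14 of them in control library 2) were too low to test.

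Over all 43 tested members, as over all genes tested, the greater the exon length of a gene (all its annotated exons together) the lower the log2 fold change tended to be. Among all tested genes with more than 12 kb of exon sequence, 46.5% were called lower (median log2 fold change -0.53), whereas among those up to 2 kb 4.39% were called lower and 26.5% higher (median 0.39). Tested members had a median exon length of 8.44 kb, against 4.38 kb for all genes tested. Of 15 members above 12 kb, 7 were called lower (46.7%, close to the 46.5% of all genes there), of 8 members between 8 and 12 kb, 5 (62.5%, against 28.8%), and of 18 members between 4 and 8 kb, 4 (22.2%, against 13.4%). When the dependence of each library on exon length and GC content was taken out (the length-adjusted fit), 10 members were called lower, all of them among the 16, and 3 were called higher, Kmt5b, Kdm4b and Kdm5b. In that fit 10.6% of all genes were called lower and 9.72% higher (20.3% in either direction, against 25.3% before), and the members' median was -0.05.

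**Figure D1:**
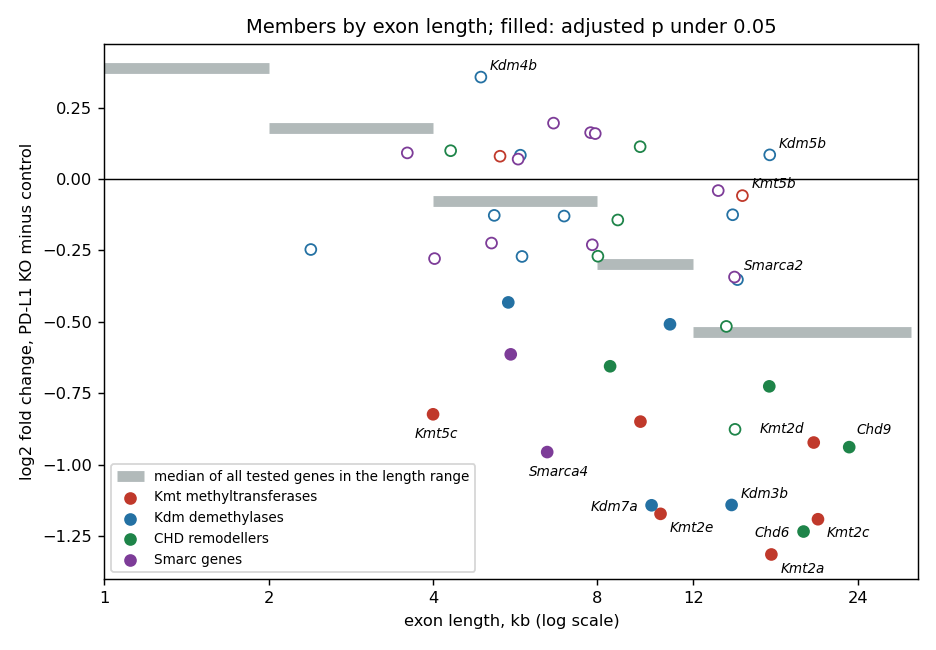
Log2 fold change (knockout minus control) of the 43 tested members against exon length in kb on a log axis, filled where the adjusted p was under 0.05; grey bars are medians of all tested genes in 5 length ranges. The grey medians go from 0.39 for genes up to 2 kb to -0.53 above 12 kb, and Smarca4, Kmt5c, Kmt2e and Kdm7a lie far below the grey bar of their length.

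Of the 4 classes the methyltransferases held the largest share of calls. Of the 8, 6 were lower (75%, against 13.5% of all genes tested) and 0 higher, with a median log2 fold change of -0.89. In the length-adjusted fit the median was -0.43, with 5 lower and 1 higher. All 5 Kmt2 genes fell. Kmt2a and Kmt2b encode the MLL enzymes that methylate histone H3 at promoters, and Kmt2c and Kmt2d those that do so mainly at enhancers. Kmt2a (chr9:44803355-44881296, mm10, minus strand) had 56.7, 35.2 and 45.7 CPM in knockout libraries 1, 2 and 3, against 115, 136 and 91.2 CPM in control libraries 1, 2 and 3. The groups lay well apart, with the highest knockout library below the lowest control (45.9 ± 10.8 against 114 ± 22.6 CPM, SD, n = 3; log2 fold change -1.31, SE 0.20, edgeR adjusted p = 0.00332). Kmt2c (chr5:25271798-25498783) had 58.96, 40.7 and 43.9 CPM in knockout, against 117, 128 and 83.5 CPM in control libraries in the same order. Its change was nearly as large (log2 fold change -1.19, SE 0.20, edgeR adjusted p = 0.00436), and control library 3 was again the lowest control. Both were lower by less in the length-adjusted fit, at -0.67 for Kmt2a (adjusted p = 0.00568) and -0.49 for Kmt2c (adjusted p = 0.0189).

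Kmt2e, a SET-domain protein that binds methylated histone H3 (chr5:23434441-23504235), had 39.9, 25.9 and 29.5 CPM in knockout, against 65.2, 84.03 and 65.2 in control. Its fall was of the same size (log2 fold change -1.17, SE 0.19, edgeR adjusted p = 0.00382) and kept most of it in the length-adjusted fit (-0.86, adjusted p = 0.00439). Kmt2d (chr15:98831669-98871204) had 110.1, 66.7 and 84.96 CPM in knockout, against 179.7, 179.6 and 137 in control (log2 fold change -0.92, SE 0.19, edgeR adjusted p = 0.0107). In the length-adjusted fit its value was -0.09 (adjusted p = 0.535), so that its fall was not called there, and it was not called without control library 2 either (adjusted p = 0.0548). Kmt2b (chr7:30568858-30588726) had 42.3, 29.5 and 38.4 CPM in knockout, against 71.9, 74.8 and 51.99 in control (log2 fold change -0.85, SE 0.19, edgeR adjusted p = 0.0127; -0.38, adjusted p = 0.0403, in the length-adjusted fit). It was not called without knockout library 2 (adjusted p = 0.0513) or without control library 2 (0.0702). Per kb of exon, the Kmt2 genes stood between 2.36 (Kmt2c) and 4.38 (Kmt2d) CPM in knockout and between 5.38 and 8.297 CPM, for the same genes, in control. Set against Kmt2d per kb, Kmt2c stood at 0.526, 0.599 and 0.507 in knockout libraries 1, 2 and 3, against 0.637, 0.698 and 0.599 in control, and the groups overlapped.

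Of the 3 Kmt5 enzymes, which methylate histone H4, 1 was called. Kmt5c, a trimethylating enzyme of silent chromatin (chr7:4740115-4747514), had 19.5, 24.98 and 24.4 CPM in knockout, against 30.6, 46.99 and 44.2 CPM in control. It fell (log2 fold change -0.82, SE 0.19, edgeR adjusted p = 0.01399), its exon length of 4.001 kb is the shortest of the 16 called members, and the value hardly changed in the length-adjusted fit (-0.78, adjusted p = 0.0301). Without control library 2 its adjusted p was 0.0746. Its paralog Kmt5b, with 49.8, 40.5 and 40.8 CPM in knockout and 48.9, 45.6 and 42.0 in control, did not pass the test (-0.06, 95% interval -0.37 to 0.25, adjusted p = 0.782). In the length-adjusted fit Kmt5b was called higher (0.47, adjusted p = 0.0196), the reverse sign of the value without that step. Kmt5a, which places the initial methyl group, was the most abundant methyltransferase at 271 ± 36.8 CPM in knockout and 256 ± 9.78 CPM in control (SD, n = 3), and did not pass (0.08, 95% interval -0.22 to 0.38, adjusted p = 0.687).

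**Figure D2:**
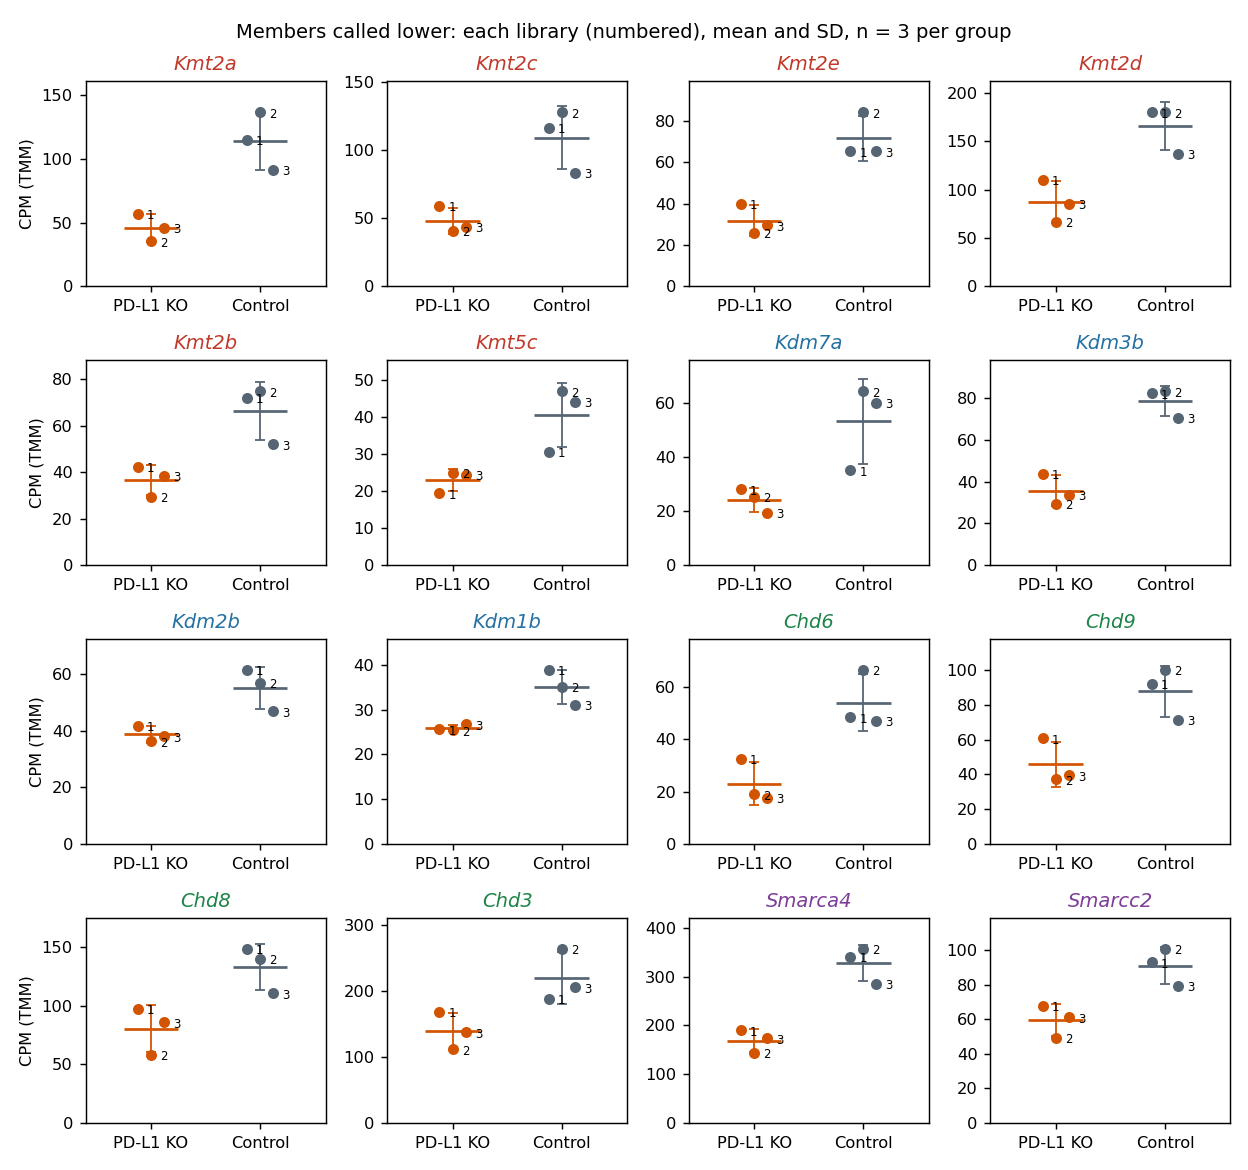
CPM (linear axis from 0) of the 16 members called lower in each numbered library, knockout left and control right, with mean (bar) and SD (whiskers), n = 3 per group. In all 16 panels the 3 knockout libraries lie below the 3 control libraries, closest in proportion for Chd3 (168 CPM in knockout library 1, 188 CPM in control library 1).

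To show the start regions of genes whose call did not depend on the setting, the 250 bases before the RefSeq gene start (build GRCm38.p6, the assembly that mm10 names) are given for 4 of the 6 members called lower under all 15 alternative settings, although the size of their change differed between settings. They are those with a single window in the promoter table and a chromosome from which sequence is printed. Each is written 5′ to 3′ on the gene's own strand, and capitals mark matches on either strand to 3 motifs, some of which overlap. The GC box was searched as GGGCGG, the site of Sp-family factors. The CCAAT box was searched as the letters of its name, and a core site of ETS-family factors as CCGGAA.
Kmt2a, chr9:44881290-44881539, minus strand: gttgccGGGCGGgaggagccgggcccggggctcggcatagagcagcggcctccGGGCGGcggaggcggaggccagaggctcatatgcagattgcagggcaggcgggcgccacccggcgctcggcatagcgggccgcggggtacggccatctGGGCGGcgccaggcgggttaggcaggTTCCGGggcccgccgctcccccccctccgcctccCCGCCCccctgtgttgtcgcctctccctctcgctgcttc
Kmt2c, chr5:25498784-25499033, minus strand: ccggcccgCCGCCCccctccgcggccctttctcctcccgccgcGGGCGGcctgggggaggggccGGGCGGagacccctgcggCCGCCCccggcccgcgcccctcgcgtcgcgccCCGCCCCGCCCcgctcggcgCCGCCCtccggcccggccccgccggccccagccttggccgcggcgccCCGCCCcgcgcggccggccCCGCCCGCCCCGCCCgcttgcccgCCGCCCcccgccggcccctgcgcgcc
Chd6, chr2:161109087-161109336, minus strand: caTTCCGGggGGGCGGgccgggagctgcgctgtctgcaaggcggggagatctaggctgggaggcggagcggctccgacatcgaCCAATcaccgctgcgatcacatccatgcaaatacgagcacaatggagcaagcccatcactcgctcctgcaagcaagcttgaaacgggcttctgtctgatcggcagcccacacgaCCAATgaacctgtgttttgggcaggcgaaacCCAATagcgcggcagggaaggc
Smarca4, chr9:21615919-21616168, plus strand: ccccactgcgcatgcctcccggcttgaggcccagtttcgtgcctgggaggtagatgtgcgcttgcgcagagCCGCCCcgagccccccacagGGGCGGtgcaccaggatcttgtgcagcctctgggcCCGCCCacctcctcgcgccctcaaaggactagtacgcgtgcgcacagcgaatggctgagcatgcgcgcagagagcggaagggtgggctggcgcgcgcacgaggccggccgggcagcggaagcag

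These windows were rich in G and C, at 76.8% for Kmt2a, 91.6% for Kmt2c, 61.6% for Chd6 and 70.8% for Smarca4. The median was 52.4% over all 32851 windows in the table and 64.8% over the 44 windows of members, called or not. The 4 windows held 29, 48, 19 and 25 CpG dinucleotides in that order, against a median of 6 over all windows and 21 over member windows. Chd6 was below the member median in both measures. Kmt2c carried 12 GC box matches, Kmt2a 4, Smarca4 3 and Chd6 1, and Chd6 was the only member of the 4 with CCAAT matches (3). GC boxes were found in 72.7% of the 44 windows of 33 members, called or not, and in 32.7% of all windows. CCAAT boxes were found in 34.1% and 33.8%, and ETS cores in 25% and 12.03%. None of the 4 windows held TATAAA or the cyclic AMP response element TGACGTCA, which says only that those letters are not in these windows.

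Among the demethylases 4 of 13 tested genes were lower (30.8%, against 13.5% of all genes tested) and 0 higher, with a median of -0.25. In the length-adjusted fit the median was -0.05, with 2 lower and 2 higher (15.4% each, against 10.6% and 9.72% of all genes). Kdm3b, a Jumonji enzyme that removes a silencing mark from histone H3 (chromosome 18), had 43.9, 29.5 and 33.7 CPM in knockout libraries 1, 2 and 3, against 82.2, 83.3 and 70.4 CPM in control libraries 1, 2 and 3. It had the lowest adjusted p of all members (log2 fold change -1.14, SE 0.17, edgeR adjusted p = 0.00272), and the length-adjusted value was -0.56 (adjusted p = 0.00671). The median of the genes of chromosome 18 was -0.24. Of its exon bases, 24.6% lie in exons of annotated genes on the opposite strand, whose reads cannot be separated here. Kdm7a, a Jumonji enzyme that erases repressive marks (chr6:39136623-39206789), had 28.1, 25.4 and 19.4 CPM in knockout, against 35.2, 64.5 and 60.3 CPM in control. Control library 1 was lower than the other controls but still above every knockout library (log2 fold change -1.14, SE 0.23, edgeR adjusted p = 0.00963), and most of the change was there in the length-adjusted fit (-0.94, adjusted p = 0.01195). Leaving out control library 2 ended the call of Kdm7a (adjusted p = 0.0517).

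Kdm2b, which brings Polycomb complexes to unmethylated CpG islands (chr5:122870665-122989823), had 41.8, 36.3 and 38.1 CPM in knockout, against 61.5, 57.01 and 46.95 CPM in control (log2 fold change -0.51, SE 0.15, edgeR adjusted p = 0.0309). Kdm1b, a flavin-dependent demethylase (chr13:47043499-47085279), had 25.6, 25.4 and 26.7 CPM in knockout, against 38.8, 35.1 and 31.1 CPM in control (log2 fold change -0.43, SE 0.14, edgeR adjusted p = 0.0437). These were the smallest called changes of the class. Kdm1b was called in 1 of the 6 fits that left out a library (without knockout library 1), with an adjusted p of up to 0.151, and Kdm2b in 2 of them (without knockout library 1 or control library 3), with up to 0.132. Their log2 fold changes in these 6 fits stayed between -0.51 and -0.35 for Kdm1b and between -0.61 and -0.42 for Kdm2b. In the length-adjusted fit Kdm2b had -0.05 (adjusted p = 0.761) and Kdm1b -0.42 (0.0520).

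The other demethylases did not pass the test, with log2 fold changes from -0.35 to 0.36. Kdm4b, an eraser of silencing marks on histone H3, had 50.6, 43.7 and 48.7 CPM in knockout, against 36.3, 40.3 and 35.04 CPM in control, with every knockout library above every control (0.36, SE 0.13, 95% interval 0.06 to 0.65, edgeR adjusted p = 0.0716). It lies on chromosome 17, whose genes had a median log2 fold change of 0.38. In the length-adjusted fit Kdm4b was called higher (0.50, adjusted p = 0.0147), as was Kdm5b, an eraser of the promoter mark that Kmt2 enzymes write (0.68, 0.0126; 0.08, 0.717, without that step). Kdm2a, a paralog of Kdm2b, had 92.8, 71.4 and 78.4 CPM in knockout, against 105, 111 and 93.7 CPM in control (-0.35, adjusted p = 0.0909), and its sign was the opposite in the length-adjusted fit (0.18, 0.195). Kdm1a, the flavin-dependent partner of CoREST, had the highest mean CPM of the class, 98.9 ± 4.53 in knockout and 108 ± 6.61 in control (SD, n = 3; -0.13, 95% interval -0.40 to 0.14). Kdm4a was high in knockout library 1 alone, at 119, 60.8 and 59.5 CPM in knockout libraries 1, 2 and 3, against 78.4, 76.8 and 70.2 CPM in control. Kdm6b, an enzyme that inflammatory signals induce in macrophages, had 19.3, 15.7 and 24.9 CPM in knockout and 25.1, 19.7 and 21.1 CPM in control (-0.13, 95% interval -0.55 to 0.29).

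**Figure D3:**
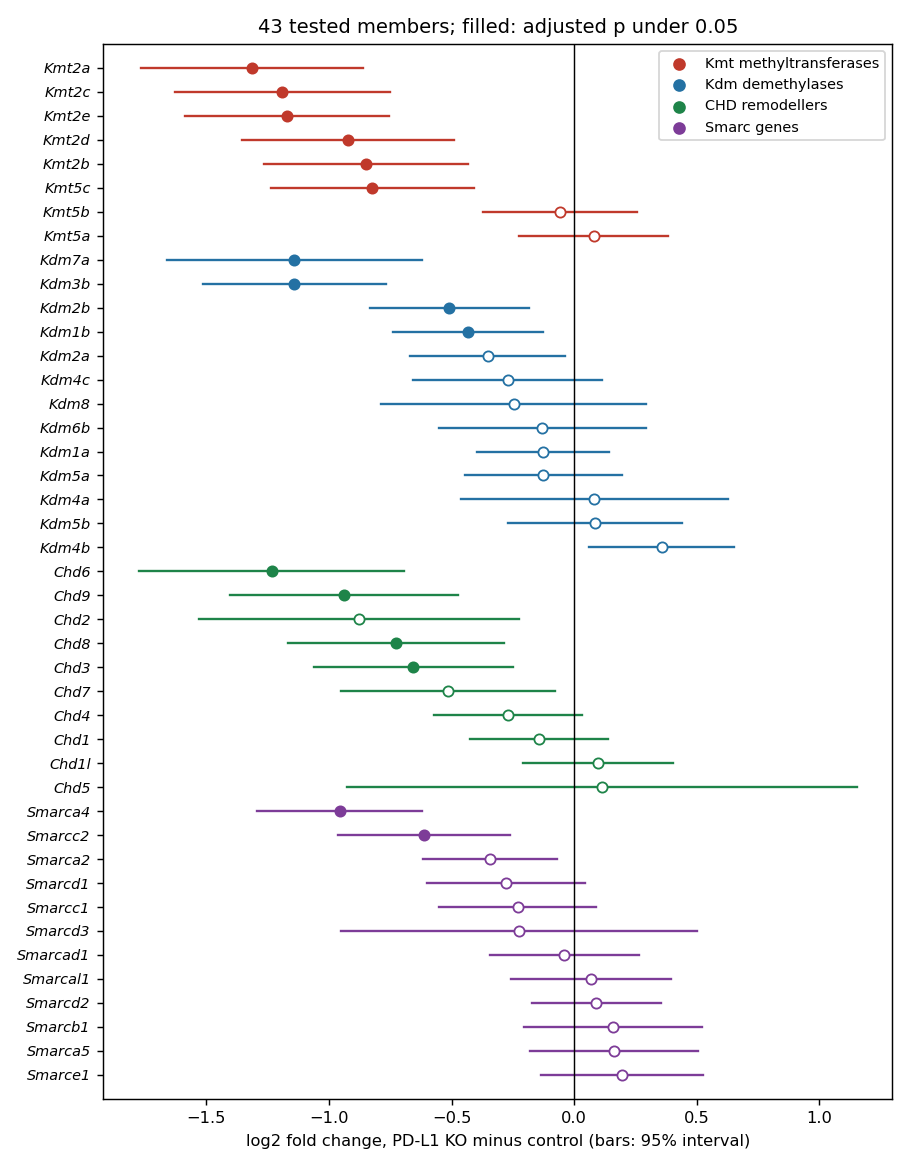
Log2 fold change (knockout minus control) of each tested member with its 95% interval, ordered within the 4 classes, filled where the adjusted p was under 0.05. The 16 filled points, from -1.31 (Kmt2a) to -0.43 (Kdm1b), are all below 0, and Kdm4b is the single open point whose whole interval is above 0.

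Of the 10 CHD genes 4 were lower (40%, against 13.5% of all genes tested) and 0 higher, with a median of -0.59. In the length-adjusted fit the median was -0.04, with 1 lower (10%, near the 10.6% of all genes) and 0 higher. The class followed exon length most closely (Spearman's rho -0.78 between length and log2 fold change over its 10 genes, against -0.67 over the 8 methyltransferases, -0.18 over the 13 demethylases, 0.08 over the 12 Smarc genes, -0.48 over the 43 members and -0.42 over 11375 genes, as a description of values that share the same 6 libraries). Chd6 (chr2:160946978-161109075), Chd7, Chd8 (chr14:52198151-52257780) and Chd9 (chr8:90828352-91054516) form a subfamily of long proteins, of which Chd7 and Chd8 are known for their part in development. Chd6 had 32.4, 18.9 and 17.6 CPM in knockout libraries 1, 2 and 3, against 48.2, 66.3 and 46.9 CPM in control libraries 1, 2 and 3 (log2 fold change -1.23, SE 0.24, edgeR adjusted p = 0.008396). It was the single CHD gene called in the length-adjusted fit (-0.58, adjusted p = 0.0229). Chd9 had 60.8, 37.1 and 39.5 CPM in knockout, against 91.99, 99.9 and 71.4 in control (log2 fold change -0.94, SE 0.21, edgeR adjusted p = 0.0132). Chd8 had 97.1, 57.96 and 85.8 CPM in knockout, against 148, 139.9 and 110.4 in control (log2 fold change -0.73, SE 0.20, edgeR adjusted p = 0.02597). In both, knockout library 1 was the closest to the controls, and neither was called without knockout library 2, knockout library 3 or control library 2, with adjusted p of up to 0.0686 for Chd9 and 0.103 for Chd8, nor was Chd8 without control library 1. Chd7 had 86.7, 55.9 and 70.6 CPM in knockout, against 122, 102 and 81.1 in control, with overlapping groups, and did not pass (-0.52, 95% interval -0.95 to -0.08, adjusted p = 0.0768).

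Chd3 and Chd4 are the alternative ATPases of the NuRD complex, which joins remodelling to histone deacetylation. Chd3 (chr11:69343273-69369406) had 168, 112 and 138 CPM in knockout, against 188, 264 and 205 CPM in control (log2 fold change -0.66, SE 0.18, edgeR adjusted p = 0.0282). It was called in 2 of the 6 fits that left out a library (without knockout library 1 or control library 1), with an adjusted p of up to 0.139. Chd4, the most abundant CHD gene, had 512, 439.7 and 497 CPM in knockout, against 626, 606 and 516 CPM in control. All its knockout values were below its control values, but the difference was small beside the spread (-0.27, SE 0.14, 95% interval -0.57 to 0.03, edgeR adjusted p = 0.1599). The level of Chd3 relative to Chd4 per kb of exon was 0.312, 0.242 and 0.263 in knockout and 0.285, 0.414 and 0.378 in control, with overlapping groups. Chd2 had 62.6, 27.6 and 29.6 CPM in knockout, against 61.8, 89.5 and 67.8 CPM in control. Knockout library 1 lay within the control range and the other knockout libraries far below it, and Chd2 did not pass (-0.88, adjusted p = 0.0523), but without knockout library 1 it did (-1.36, adjusted p = 0.000126), as it did by DESeq2 (0.0135) and limma-voom (0.029). In the length-adjusted fit Chd2 had -0.40 (adjusted p = 0.188). Its adjusted p ranged from 0.000126 to 0.1896 over the 15 alternative settings. Of its exon bases, 19.3% lie in exons of other annotated genes, whose reads cannot be separated here. Chd1, which binds the methylated promoter mark, Chd1l and the scarcely expressed Chd5 (146 counts in all) had log2 fold changes of -0.14, 0.10 and 0.11 and did not pass.

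Of 12 tested Smarc genes 2 were lower (16.7%, near the 13.5% of all genes tested) and 0 higher, and their median was -0.13, with the opposite sign (0.12) in the length-adjusted fit. Both calls were subunits of SWI/SNF. Smarca4, its ATPase BRG1 (chr9:21616169-21704230, plus strand), had 190.1, 143 and 173 CPM in knockout libraries 1, 2 and 3, against 341, 357 and 286 CPM in control libraries 1, 2 and 3. Every knockout library was far below every control (169 ± 23.7 against 328 ± 37.3 CPM, SD, n = 3; log2 fold change -0.96, SE 0.15, edgeR adjusted p = 0.00372). Its exon length was 6.47 kb, and in the length-adjusted fit it was still lower (-0.71, adjusted p = 0.00288, the lowest of the members in that fit). Smarcc2, a scaffold subunit (chr10:128459248-128490482), had 68.1, 49.5 and 61.2 CPM in knockout, against 93.2, 101 and 79.5 CPM in control (log2 fold change -0.61, SE 0.16, edgeR adjusted p = 0.0209; -0.48, adjusted p = 0.0189, in the length-adjusted fit). It was called without knockout library 1 or control library 3 but not without any of the other 4 libraries in turn (adjusted p up to 0.109).

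The paralogs of these subunits did not pass the test. Smarca2, the alternative ATPase BRM, had 97.3, 84.02 and 95.3 CPM in knockout, against 116, 123 and 113 CPM in control (-0.34, 95% interval -0.62 to -0.07, adjusted p = 0.0648), and 0.24 in the length-adjusted fit (adjusted p = 0.191). The level of Smarca2 relative to Smarca4 per kb of exon was 0.232, 0.266 and 0.2496 in knockout libraries 1, 2 and 3, against 0.154, 0.156 and 0.179 in control, so that Smarca4 was the more abundant in all 6 libraries and the groups did not overlap. The scaffold Smarcc1 had 212, 199 and 211 CPM in knockout, against 286, 236 and 208 CPM in control (-0.23, 95% interval -0.55 to 0.09), and its level relative to Smarcc2 was 2.21, 2.84 and 2.45 in knockout, against 2.18, 1.66 and 1.85 in control. Smarcd1, of a set of alternative subunits, had 22.04, 23.6 and 28.6 CPM in knockout, against 30.9, 30.99 and 28.4 in control (-0.28, adjusted p = 0.175), and its level relative to Smarcd2 was 0.169, 0.194 and 0.234 in knockout, against 0.251, 0.266 and 0.255 in control. These ratios describe single libraries and were not tested. Smarcd3 was low (235 counts in all, with 48.2% of its exon bases in exons of opposite-strand genes).

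The core subunits Smarcb1 and Smarce1 and the genes that carry a Smarc symbol but work outside SWI/SNF did not pass the test. Smarce1 had 106, 145 and 145 CPM in knockout, against 116, 119.9 and 111 CPM in control, and Smarcb1 36.7, 47.95 and 53.6 CPM in knockout, against 45.1, 40.4 and 38.6 CPM in control. In both, knockout library 1 was below the control range and the other knockout libraries above it (0.20, 95% interval -0.13 to 0.53, for Smarce1 and 0.16, -0.20 to 0.52, for Smarcb1), and without knockout library 1 Smarce1 was the single member called higher. Smarca5, the ISWI ATPase SNF2H and the Smarc gene with the highest mean CPM over all 6 libraries, had 249, 362 and 313 CPM in knockout, against 275, 261 and 290.1 CPM in control (0.16, 95% interval -0.18 to 0.50). Smarcad1 and Smarcal1, which act at replication and repair sites, had -0.04 (95% interval -0.34 to 0.26) and 0.07 (-0.26 to 0.40), and Smarcd2 had 0.09 (-0.17 to 0.35).

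**Figure D4:**
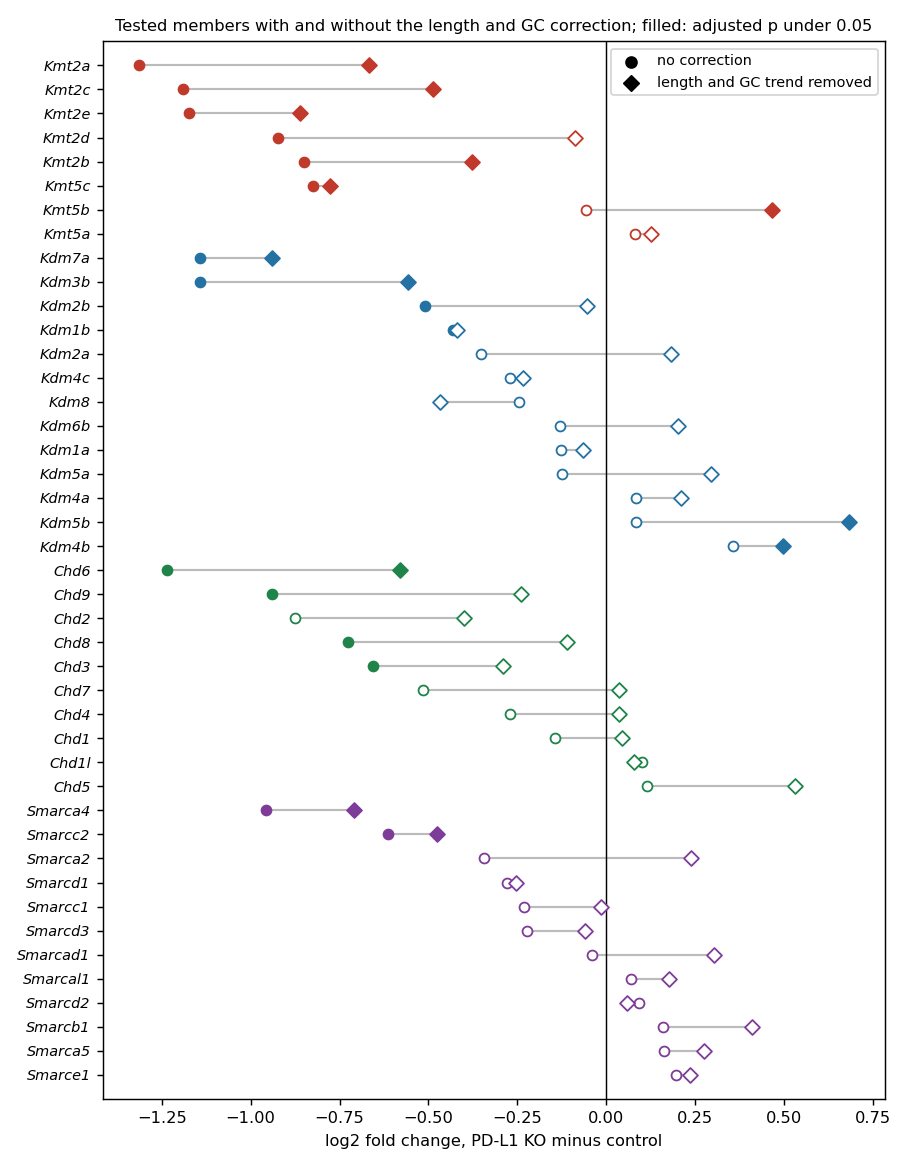
Log2 fold change (knockout minus control) of the 43 tested members without (circles) and with (diamonds) the adjustment of each library for exon length and GC content, filled where the adjusted p was under 0.05. Kmt5c (-0.82 and -0.78) and Kdm1b (-0.43 and -0.42) keep nearly the same place, whereas Kmt2d has -0.92 without and -0.09 with the adjustment, and Kmt5b -0.06 and 0.47.

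The number of calls changed with single libraries. Among the 16 called members, knockout library 1 was the highest knockout library in 14 and knockout library 2 the lowest in 13, and control library 2 was the highest control in 12 and control library 3 the lowest in 13. The median of all 43 tested members, as log2 deviation from the control mean, was -0.20, -0.45 and -0.33 in knockout libraries 1, 2 and 3, against 0.04, 0.09 and -0.09 in control libraries 1, 2 and 3. Over all tested genes above 8 kb the same deviation was -0.20, -0.48 and -0.43 in knockout and -0.01, 0.08 and -0.06 in control, with the libraries in the same order. The members are of all lengths, 18 of them between 4 and 8 kb, so these sets are not matched for length. Without control library 2, the library with the Col1a1 and Fn1 counts, 6 of the 16 were still called (4.07% of all genes were lower in that fit). The other 10 had log2 fold changes from -0.98 (Kdm7a) to -0.43 (Kdm1b) there, against -1.14 and -0.43 for these genes with all libraries. The 6 were Kmt2a, Kmt2c, Kmt2e, Kdm3b, Chd6 and Smarca4, which were called lower under all 15 alternative settings, with adjusted p of at most 0.0448. Without knockout library 1, all 16 were called and 5 further members with them (22.3% of all genes were lower). Without knockout library 2, 9 members were lower (5.49% of all genes), without knockout library 3, 10 (5.81%), without control library 1, 12 (11.2%), and without control library 3, 14 (9.62%). With libraries scaled by total counts alone, 21 members were lower and 0 higher, while over all genes 2212 were lower and 667 higher in place of 1543 and 1353, and the median of all genes was -0.14.

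Partner genes of the same complexes, from lists of subunits and related enzymes, moved in both directions. Each count below stands beside 13.5% lower and 11.8% higher over all genes tested, and 10.6% and 9.72% in the length-adjusted fit. Of 13 tested genes of COMPASS-type complexes without a Kmt2 symbol, which hold partners of the Kmt2 enzymes and the separate enzymes Setd1a and Setd1b, 4 were lower and 1 higher (median -0.25). Dpy30, a small core subunit, rose (106, 162 and 146 CPM in knockout, against 68.9, 68.1 and 71.3 CPM in control; log2 fold change 0.99, SE 0.16, edgeR adjusted p = 0.00431; 0.62 in the length-adjusted fit). It lies on chromosome 17, whose genes had a median log2 fold change of 0.38. The cofactors Hcfc1 (-1.03) and Ncoa6 (-0.95) and the methyltransferase Setd1a (-0.67) fell. Setd1a was not called in the length-adjusted fit (adjusted p = 0.0512). Of 20 other SET-domain and DOT1 methyltransferases, 6 were lower and 1, Smyd3 (0.52), was higher (median -0.34). Those lower included Nsd2 (-0.54), Ash1l (-0.88), Setd7 (-0.60) and Ehmt1 (-0.57), each called in this fit but not in the length-adjusted fit. With that adjustment 1 of the 20 was lower, Smyd4 (-0.62, adjusted p = 0.0250), and the median was -0.11. The 2 higher there were Smyd3 (0.79, adjusted p = 0.00783) and Ehmt2 (0.51, adjusted p = 0.0137). Polycomb repressive complex 2 had 1 higher and 2 lower of 10, near the 11.8% higher and 13.5% lower over all genes tested. Its methyltransferase Ezh2 rose (27.7, 32.2 and 29.0 CPM in knockout, against 9.22, 10.96 and 12.9 CPM in control; log2 fold change 1.41, SE 0.16, edgeR adjusted p = 0.000826), with 1.51 in the length-adjusted fit, and Phf19 (-1.03) and Jarid2 (-0.46) fell. Jarid2 was not called in the length-adjusted fit (-0.12, adjusted p = 0.496).

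Other Jumonji proteins and CoREST subunits had 5 lower and 1 higher of 12 (median -0.26), with the demethylases Phf8 (-0.94) and Phf2 (-0.65) and the CoREST-associated Gse1 (-1.17) lower and Riox2 (0.59) higher. SWI/SNF subunits without a Smarc symbol had 7 lower and 1 higher of 18 (median -0.30), among them the DNA-binding subunits Arid1a (-0.71) and Arid2 (-0.64), the bromodomain subunit Pbrm1 (-0.75) and Ss18l1 (-0.76). In the length-adjusted fit 2 of these 18 were lower, Pbrm1 (-0.57) and Ss18l1 (-0.81), near the 10.6% of all genes. Arid1a (-0.16) and Arid2 (-0.30, adjusted p = 0.105) were not called there, and Arid1b, on chromosome 17, was called higher (0.45, adjusted p = 0.0205). ISWI partners had 4 lower and 0 higher of 8 (median -0.58), Baz2b (-1.10), Baz2a (-0.81), Rsf1 (-0.62) and Bptf (89.8, 58.7 and 63.1 CPM in knockout, against 158, 156 and 109 CPM in control), while the ISWI ATPase Smarca5 itself did not pass. In the length-adjusted fit Baz2b (-0.52), Baz2a (-0.39) and Bptf (-0.46) were lower and Rsf1 was not called (-0.10, adjusted p = 0.502). NuRD partners had 1 lower and 1 higher of 12 (median 0.21), Gatad2b (-0.44) and Mbd3 (0.43), against 13.5% lower and 11.8% higher over all genes tested. Neither was called in the length-adjusted fit (-0.07, adjusted p = 0.657, and 0.18, 0.228), where 2 other NuRD partners were higher and 0 lower. The INO80 and SRCAP family had 4 lower and 5 higher of 20 (median 0.26), with the large ATPases Ep400 (-1.21) and Srcap (-1.32) and the subunit Ino80d (-0.82) lower and the small ATPase Ruvbl1 (0.61) higher. Of this family 1 gene was lower in the length-adjusted fit, Ep400 (-0.63), and 1 higher, and Srcap (adjusted p = 0.09203), Ino80d (0.143) and Ruvbl1 (0.124) were not called. The calls followed length here as well: over the 136 tested genes of all 10 lists, the 38 called lower had a median exon length of 10.7 kb and the 11 called higher 2.92 kb.

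**Figure D5:**
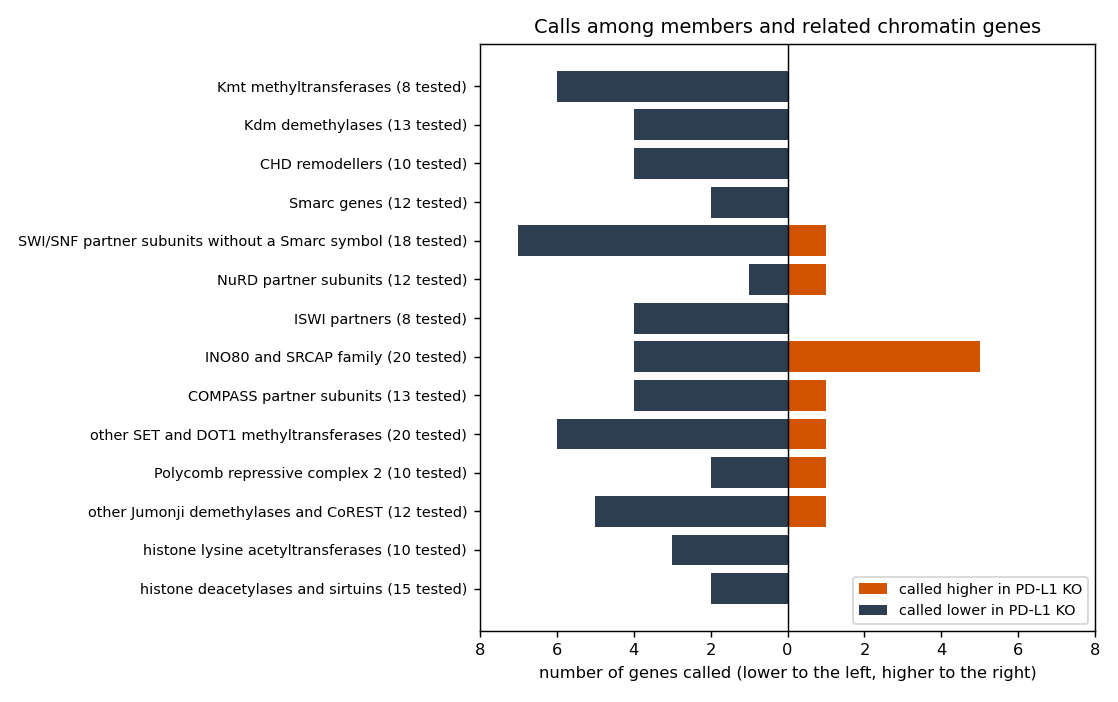
Number of genes called lower (left) and higher (right) in knockout at an edgeR adjusted p under 0.05 in the 4 member classes and in 10 lists of partner subunits and related enzymes. No member class has a bar to the right, and the INO80 and SRCAP family, with 5 higher and 4 lower, is the only list with more genes higher than lower.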

How the data were processed

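RNA-seq libraries of DC2.4 cells labelled PD-L1 knockout and control, 3 each, were analysed. The protocols in the labels name TRIzol for the total RNA and a KAPA Hyper Prep kit for the libraries. The submitters' processing notes name Trimmomatic 0.39, STAR 2.7.5c, StringTie 2.1.7 and the build mm10. The deposited values are whole-number read counts per gene symbol, not scaled. How reads were counted, with which annotation and strand setting, is not given in the sources used here, so reads of overlapping genes cannot be separated.

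Columns were matched to samples by title. The members and lists were chosen with earlier results of these data known. Of 31205 genes 11453 passed edgeR's filterByExpr. They were scaled by TMM and tested, two-sided, by quasi-likelihood in edgeR 4.0.16 (with limma 3.58.1 under R 4.3.3), with Benjamini-Hochberg adjustment over all genes tested, and members were read from that fit. The SE is the absolute log2 fold change over the root of F, and errors beside means are SD. The common biological coefficient of variation was 17.5%. No pair of libraries within a group matched within sampling noise. All called members and the most abundant member of each class were named, with up to 2 uncalled members per class of the largest change, up to 4 called genes per related list, and further members and related genes chosen after their values were seen. Positions, exon lengths (union of exons) and GC content came from GENCODE M21, which gave a length for 99.3% of tested genes. Promoter windows came from RefSeq, build GRCm38.p6.

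Alternatives were DESeq2 size factors, total counts alone, limma-voom, the Wald test of DESeq2 1.42.0, no filter, at least 1 CPM in 3 libraries, a block for the replicate number, offsets for each library's loess trend (span 0.3) with exon length and GC content (the length-adjusted fit), both of these together, and leaving out each library. The steps were tested on simulated counts.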

Additional observations from a re-analysis of the deposited data

How the results depend on the processing

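Member calls were similar under the other tests and filters and differed most with the length and GC offsets and with single libraries. With the offsets, 1 methyltransferase was higher and 5 lower, 2 demethylases higher and 2 lower, and 1 CHD gene lower. With the replicate block added to the offsets, 1 methyltransferase was higher and 4 lower (Kmt2b lost its call, adjusted p = 0.0612), 2 demethylases were higher and 2 lower, and 1 CHD gene was lower. Kmt5b, at -0.06, had 0.47 with the offsets and 0.47 with the block as well. With total counts alone 667 genes were higher and 2212 lower over the whole table, the median of all genes was -0.14, and 7 CHD genes were lower. Leaving out each library in turn gave 166 (without control library 2) to 2346 (without knockout library 1) genes higher and 472 to 2616 lower, for the same libraries. The methyltransferases lower ranged from 3 to 6, the demethylases from 1 to 6, the CHD genes from 1 to 6 and the Smarc genes from 1 to 3, with 0 to 1 Smarc gene higher and 0 higher in the other classes. The replicate block alone gave 1480 genes higher and 1732 lower and 17 members lower, 15 of them among the 16, so Kdm1b lost its call and Chd2 and Chd7 gained one. The labels state no pairing by replicate number. Deviations from the group means correlated at 0.154, -0.0644 and 0.358 for numbers 1, 2 and 3. Knockout libraries 1 and 3 correlated best with the control of their own number, and knockout library 2 with control library 3 (0.107). Deviations from a mean of 3 libraries depend on each other, so these values do not settle whether the libraries were paired. Depth limits Chd5, Smarcd3, Kdm4d and Smarca1, with 146, 235, 6 and 15 counts in all.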

Other observations

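Histone acetylation enzymes, which lie outside the 4 classes, were read from the same fit as the members. Of 10 tested lysine acetyltransferases 3 were lower and 0 higher by edgeR (median log2 fold change -0.18), against 13.5% lower and 11.8% higher over all genes tested. Kat6a, a MYST-family enzyme, had 54.9, 35.5 and 34.8 CPM in knockout libraries 1, 2 and 3, against 99.5, 113 and 83.1 CPM in control libraries 1, 2 and 3 (log2 fold change -1.24 with SE 0.20, adjusted p = 0.00405). Its paralog Kat6b had 12.9, 4.70 and 6.27 CPM in knockout, against 19.5, 21.9 and 16.1 CPM in control (log2 fold change -1.28 with SE 0.32, adjusted p = 0.0203), and was not called in the length-adjusted fit (-0.72, adjusted p = 0.0513) or without knockout library 2 or 3 or control library 1 or 2. Ep300, the coactivator p300, had 54.5, 38.4 and 38.4 CPM in knockout, against 109, 111 and 76.1 CPM in control (log2 fold change -1.17 with SE 0.20, adjusted p = 0.00459). In the length-adjusted fit Ep300 had -0.59 (adjusted p = 0.0102) and Kat6a -0.97 (adjusted p = 0.00375). Of 15 histone deacetylases and sirtuins 2 were lower, about the 13.5% of all genes tested, and 0 higher (median 0.01). Hdac7, a class II deacetylase, had 0.226, 0.739 and 0.398 CPM in knockout, against 2.06, 8.47 and 5.11 CPM in control (log2 fold change -3.51 with SE 0.58, adjusted p = 0.00437; -3.16, adjusted p = 0.0106, in the length-adjusted fit). Hdac7 was scarce, at under 1 CPM in every knockout library, and its control libraries spread widely (5.22 ± 3.21 CPM, SD, n = 3), so the size of its change is uncertain. Hdac9, of the same class, had 37.3, 25.7 and 24.8 CPM in knockout, against 40.0, 58.0 and 62.1 CPM in control (log2 fold change -0.87 with SE 0.21, adjusted p = 0.0173), and was not called in the length-adjusted fit (-0.41, 0.119).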
